A study of Homo sapiens with 6 samples.

Results

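MicroRNA host genes are genes whose bodies contain the hairpin of a microRNA. A list of 40 such genes was followed through 3 peak lists of RNA bound by the RNA helicase DDX5, out of 62700 genes of GENCODE version 44 on the main chromosomes. Of the 40 genes, 28 were protein-coding and 12 were annotated as long non-coding RNA (lncRNA). A peak belonged to a host when its summit, the position of highest signal given by the authors, lay in the gene body, introns included. The list held 82 annotated microRNA genes, 73 of them on the strand of the host and 9 on the opposite strand. MIB1 had only opposite-strand microRNA genes (MIR133A1 and MIR1-2), so distances were measured in the other 39 hosts.

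The study used RH30, an alveolar rhabdomyosarcoma line that carries the PAX3-FOXO1 fusion. RNA immunoprecipitation and sequencing (RIP-seq) was done on nuclear extracts with the DDX5 antibody ab126730 in 3 biological replicates, beside 3 INPUT samples taken without antibody, and libraries were unstranded. Peak lists of the 3 immunoprecipitates were analysed, and INPUT files were not analysed here. The fold enrichment of a peak is the authors' ratio over the background of the peak caller, whose control is not given in the sources used here, so it cannot be read as enrichment over INPUT.

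Host transcripts are made by RNA polymerase II, and the microRNA hairpin sits in an intron or an exon of them. In the nucleus the Microprocessor, made of the ribonuclease Drosha and its partner DGCR8, cuts the hairpin out of the primary transcript. DDX5 and its paralogue DDX17 are DEAD-box helicases that associate with Drosha and assist the processing of a subset of primary microRNAs. DDX5 also takes part in splicing and transcription.

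Some of the hosts form families whose microRNAs share a seed, the bases 2 to 8 through which a microRNA recognises its targets. Mature sequences from RefSeq (GRCh38.p14) were matched to 79 of the 82 hosted microRNA genes. Those below belong to some of the hosts described in the results, written 5′ to 3′ with the seed in capitals. The first come from the paralogous pairs CTDSP1 (miR-26b) and CTDSPL (miR-26a), and SREBF2 (miR-33a) and SREBF1 (miR-33b).
miR-26b-5p: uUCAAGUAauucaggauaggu
miR-26a-5p: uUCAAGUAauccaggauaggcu
miR-33a-5p: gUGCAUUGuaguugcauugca
miR-33b-5p: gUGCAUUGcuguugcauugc

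PANK2 and PANK3 each hold a copy of miR-103a, PANK1 holds miR-107, and the single NFYC intron with microRNA genes holds both members shown of the miR-30 family.
miR-103a-3p: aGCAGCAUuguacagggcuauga
miR-107: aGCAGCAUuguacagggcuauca
miR-30c-5p: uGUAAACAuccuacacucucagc
miR-30e-5p: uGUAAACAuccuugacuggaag

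The lncRNA MIR23AHG and the protein-coding gene AOPEP hold paralogous clusters of miR-23, miR-27 and miR-24, and MIRLET7BHG holds let-7a and let-7b.
miR-23a-3p: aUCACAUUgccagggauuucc
miR-23b-3p: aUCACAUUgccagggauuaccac
miR-27a-3p: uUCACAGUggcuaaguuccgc
miR-27b-3p: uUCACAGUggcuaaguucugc
let-7a-5p: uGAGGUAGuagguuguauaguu
let-7b-5p: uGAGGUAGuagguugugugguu

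The seed AGCAGCA, shared by 5 mature sequences, is spread over 3 hosts with thin support, DLEU2 (miR-15a and miR-16), SMC4 (miR-15b and miR-16) and MIR497HG (miR-195 and miR-497).
miR-15a-5p: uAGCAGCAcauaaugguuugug
miR-15b-5p: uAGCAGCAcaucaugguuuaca
miR-16-5p: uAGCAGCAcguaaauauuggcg
miR-195-5p: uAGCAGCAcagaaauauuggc
miR-497-5p: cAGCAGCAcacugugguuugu

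The last are miR-6793 of DNM2, whose hairpin was overlapped by a peak, and miR-198 of FSTL1. The latter had a summit within 1 kb in every list.
miR-6793-5p: uGUGGGUUcuggguugggguga
miR-6793-3p: uCCCCAACcccugcccgcag
miR-198: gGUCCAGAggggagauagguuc

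A total of 21 of the 40 hosts had a peak in every list, 6 in 2 lists, 4 in 1 list and 9 in none. Protein-coding hosts were found more widely than lncRNA hosts. Of 28 protein-coding hosts, 19 (67.9%) had a peak in every list, where the share over all protein-coding genes was 25.7% (5155 of 20046). Of 12 lncRNA hosts, 2 (MIRLET7BHG and MIR23AHG) had a peak in every list, where the share over all lncRNA genes was 3.82%. Both lncRNA calls ended without repeated values, that is, peaks whose fold and p occur together 10 times or more in a list. At least 1 list held a peak for 24 of the 28 protein-coding hosts (51.6% over all protein-coding genes) and for 7 of the 12 lncRNA hosts (13.1% over all lncRNA genes). All summits of MIR23AHG and MIR497HG, which are among these 7, also lay in exons of another gene. With unstranded libraries the source of their reads could not be told apart. The count of 21 became 11 for peaks with a fold of at least 4, and 14 without repeated values, which also removed AOPEP, COPZ1, DNM2, DNM3 and MEST.

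Gene length moved with these shares. The median body measured 77.1 kb for protein-coding hosts and 27.4 kb for all protein-coding genes. For lncRNA it measured 34.5 kb for hosts and 6.28 kb for all lncRNA genes. Among the 4704 protein-coding genes at least as long as the median protein-coding host, 41.3% had a peak in every list. A further comparison is with the 1120 other genes that carry a microRNA gene on their own strand. With both gene types pooled, their median length of 60.4 kb is near the 59.4 kb of the 40 hosts. Of these other genes, 39.2% had a peak in every list and 66.2% in at least 1, against 52.5% and 77.5% of the 40 hosts. By type, 46.2% of the 903 other protein-coding genes had a peak in every list, against 67.9% of the protein-coding hosts (median lengths 64.0 and 77.1 kb). For lncRNA it was 10.1% of 217 other genes against 16.7% of the hosts (40.2 and 34.5 kb). With both types pooled, the difference in the share found in every list was 13.3 percentage points. Leaving out 1 replicate put this pooled difference between 6.52 (without replicate 2) and 20.9 (without replicate 1). No test was made of it, since the hosts were listed with results of these data known.

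Seed families were not uniform in support. CTDSP1 and CTDSPL, SREBF1 and SREBF2, and MIR23AHG and AOPEP were found in every list as pairs. PANK2 and PANK3 were found in every list and PANK1 in 2. COPZ1 (miR-148b) was found in every list, while its paralogue COPZ2 (miR-152, with the same seed) had no peak in any. ARPP21 and R3HDM1, the hosts of miR-128, were each found in replicates 2 and 3. Of the let-7 hosts, MIRLET7BHG was found in every list, and MIR99AHG and MIR100HG in 1 list each. With each summit given to 1 gene only, MIR23AHG and PANK2 were no longer found in every list. Without repeated values, MIR23AHG, AOPEP, COPZ1 and MIRLET7BHG were not. The CTDSP1 and SREBF1 pairs stayed in every list under both settings.

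**Figure D1:**
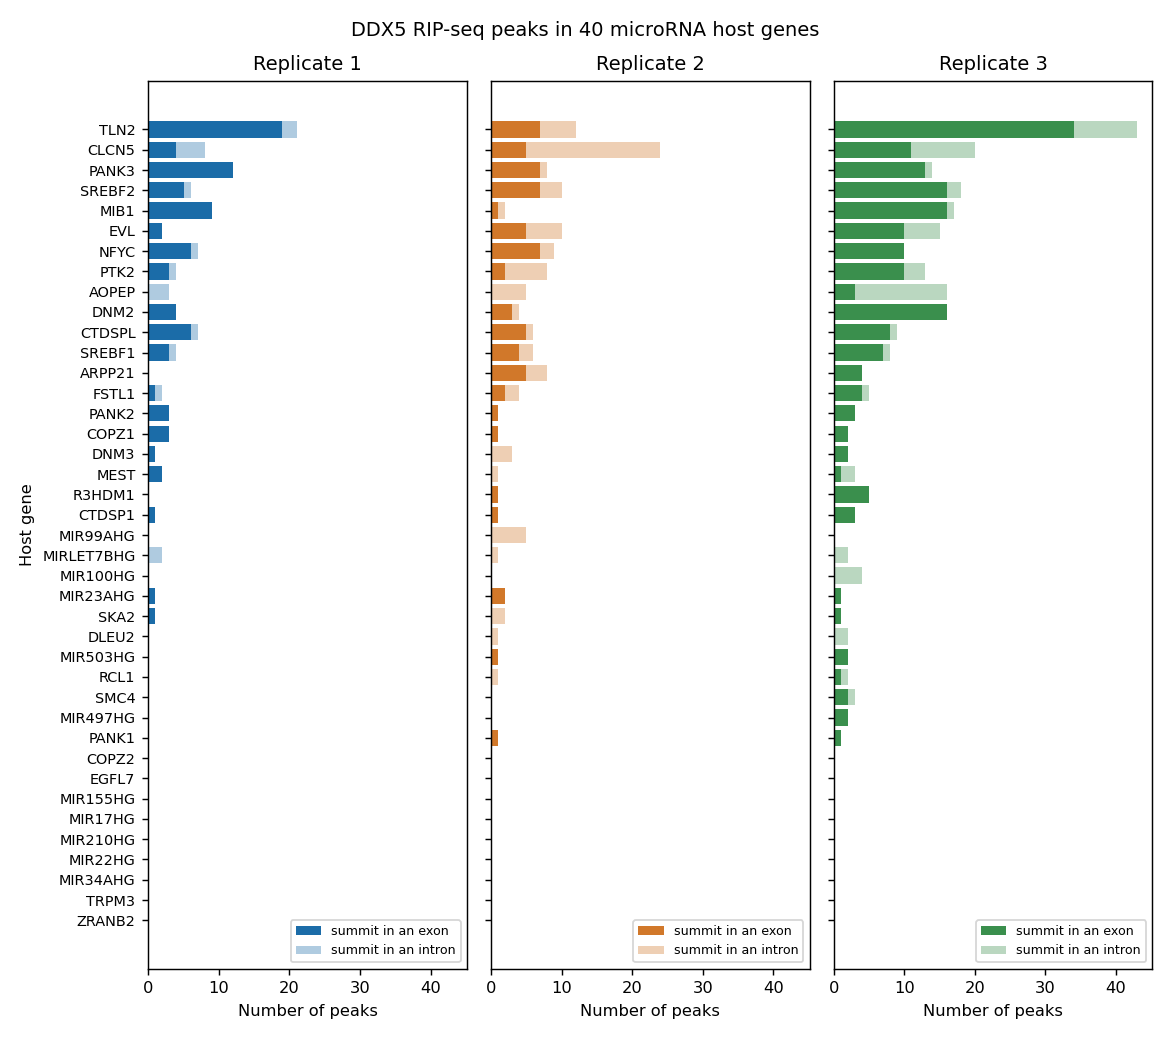
Number of peaks in each of the 40 host genes, one panel for each replicate; the dark part of a bar counts summits in exons of the host and the pale part summits in introns. TLN2 has the most peaks in replicates 1 and 3 (21 and 43), CLCN5 has the most in replicate 2 (24, of which 5 are exonic), and the last 9 genes have none.

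The hosts held 103, 138 and 246 peaks in the lists of replicates 1, 2 and 3. Their mean was 162.3 ± 74.5 (SD, n = 3 lists). The lists themselves held 23715, 23651 and 45832 peaks. The 5 hosts with the most peaks, TLN2, CLCN5, PANK3, SREBF2 and MIB1, held 224 of the 487 host peaks (46.0%). Of the 487 summits, 80 (16.4%) also lay in the body of another gene, and with unstranded libraries the source of those reads could not be told apart.

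The values that follow are the fold enrichment of the best peak of a host, that is, of the one with its highest −log10 q in each list. The median over the 21 hosts of their mean best fold was 4.43. Peaks in the hosts as a whole ranked in the middle of their lists, with a median percentile of 50.4, 50.7 and 47.7 in replicates 1, 2 and 3, and a median fold of 2.64, 3.12 and 3.16 beside 2.63, 3.19 and 2.90 for peaks in all other protein-coding and lncRNA genes.

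CTDSP1 encodes a phosphatase of the RNA polymerase II C-terminal domain that represses neuronal genes. Its best peak had a fold of 7.15, 7.28 and 7.30 in replicates 1, 2 and 3 (mean 7.24 ± 0.0806, SD, n = 3). All 3 best summits lay within 17 bp of each other in the 3′ UTR, in the region chr2:218405247-218405917 (GRCh38), and the peak ranked at the 98th percentile of its list or above. CTDSP1 was thus at nearly the same value in every list. Its paralogue CTDSPL had 7, 6 and 9 peaks, and its best folds were 4.72, 4.47 and 4.68 (mean 4.62 ± 0.131). All 4 CTDSPL regions found in every list lay in the 3′ UTR, between 12019 and 14822 bp downstream of MIR26A1.

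SREBF2 is the main transcription factor of cholesterol synthesis, and its intronic miR-33a lowers cholesterol export. Its best folds were 4.21, 7.43 and 7.27 (mean 6.31 ± 1.81), from 6, 10 and 18 peaks. Replicate 1 was the low one. All 3 best summits fell in 1 region across the end of the coding sequence and the 3′ UTR, chr22:41905439-41906020, 4829, 4537 and 4563 bp downstream of MIR33A. SREBF1, which drives fatty acid synthesis and holds miR-33b, had best folds of 3.39, 6.92 and 5.25 (mean 5.18 ± 1.77). Its best summit lay in the 3′ UTR in replicate 1, in an intron in replicate 2 and in coding sequence in replicate 3, so its best values do not come from 1 place. Of its 4 regions found in every list, that in coding sequence (chr17:17818965-17819668) had folds of 4.05, 3.54 and 5.25 with summits within 31 bp.

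NFYC, a subunit of the CCAAT-binding factor NF-Y, had 7, 9 and 10 peaks with best folds of 2.54, 4.32 and 3.36 (mean 3.41 ± 0.889). Together with TLN2 it had the most regions found in every list, 5 each. All 5 NFYC regions lay downstream of MIR30C1, in coding sequence or at its border with the 3′ UTR or a non-coding exon.

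The pantothenate kinases PANK1, PANK2 and PANK3 catalyse the first step of coenzyme A synthesis. PANK3 had 12, 8 and 14 peaks with best folds of 2.28, 3.31 and 4.08 (mean 3.22 ± 0.901). Its 4 regions found in every list were all in the 3′ UTR, and 7 of its 34 summits also lay in an exon of the pseudogene SLC2A3P1. PANK2 had best folds of 3.69, 2.27 and 6.79 (mean 4.25 ± 2.31), and 5 of its 7 summits also lay in an exon of the neighbouring gene RNF24. With each summit given to 1 gene only, PANK2 kept peaks in replicate 3 alone, the best with a fold of 6.79. PANK1 had 1 peak in replicate 2 (fold 2.73) and 1 in replicate 3 (fold 3.25), at different places of the 3′ UTR, and none in replicate 1.

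Several hosts act at the cytoskeleton and at adhesion sites. EVL, an actin-filament elongation factor of the Ena/VASP family, had best folds of 6.50, 5.50 and 10.7 (mean 7.56 ± 2.75), the highest mean of the 21. The 3 best summits lay within 39 bp in a coding exon (chr14:100097416-100097713), 12074, 12113 and 12087 bp upstream of MIR342, and replicate 3 stood above the other lists. TLN2, a talin that couples integrins to actin, had 21, 12 and 43 peaks over 454106 bp with best folds of 4.45, 5.26 and 3.57 (mean 4.43 ± 0.843). Of its 5 regions found in every list, 3 were in the 3′ UTR, 1 in the 5′ UTR and 1 in coding sequence. The focal adhesion kinase gene PTK2 had 4, 8 and 13 peaks with best folds of 2.47, 3.88 and 2.35 (mean 2.90 ± 0.852), and both of its regions found in every list were in the 3′ UTR.

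Membrane traffic is the role of another group. DNM2, the ubiquitous dynamin of vesicle scission, had 4, 4 and 16 peaks with best folds of 4.99, 4.33 and 5.98 (mean 5.10 ± 0.830). Without repeated values DNM2 was no longer found in every list, and its mean best fold was 3.00 ± 1.63 over the lists left. DNM3, a dynamin best known from neurons, had 1, 3 and 2 peaks with best folds of 3.79, 5.29 and 4.59 (mean 4.56 ± 0.752), and no place of it was shared by all lists. The coatomer subunit gene COPZ1 had best folds of 2.44, 3.11 and 1.94 (mean 2.50 ± 0.589), always in the 3′ UTR. CLCN5, an endosomal chloride-proton exchanger, had 8, 24 and 20 peaks with best folds of 1.78, 6.87 and 3.11 (mean 3.92 ± 2.64). Replicate 2 stood apart for CLCN5, since 19 of its 24 summits there were intronic. Replicate 2 also had the highest intronic share in all other protein-coding and lncRNA genes (41.7%).

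Of the remaining hosts found in every list, FSTL1, a secreted glycoprotein gene, had best folds of 2.96, 4.37 and 4.05 (mean 3.80 ± 0.740), and a mean of 2.14 ± 0.713 without repeated values. All 11 FSTL1 summits also lay in the body of another gene. The best summit was intronic in replicate 1 and in the 5′ UTR in replicates 2 and 3, so these values do not come from 1 place. AOPEP, an aminopeptidase gene, had 3, 5 and 16 peaks with best folds of 4.99, 4.01 and 6.01 (mean 5.00 ± 1.00), and 12 of its 24 summits also lay in another gene body, 9 of them in exons of FANCC. The best AOPEP summits of replicates 1 and 3 were among those in FANCC exons, and with each summit given to 1 gene only the mean best fold of AOPEP was 3.12 ± 0.991. MIB1, a ubiquitin ligase gene of Notch signalling, had 9, 2 and 17 peaks with best folds of 2.55, 2.43 and 2.97 (mean 2.65 ± 0.282), a narrow range in spite of unequal counts. The imprinted gene MEST had best folds of 1.48, 4.01 and 2.37 (mean 2.62 ± 1.28). Its only peak in replicate 2 also lay in an exon of MESTIT1. With each summit given to 1 gene only, MEST was no longer found in every list. SKA2, a kinetochore gene that holds miR-301a and miR-454, had best folds of 2.22, 3.40 and 1.58 (mean 2.40 ± 0.920). MEST and SKA2 had no region found in every list.

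**Figure D2:**
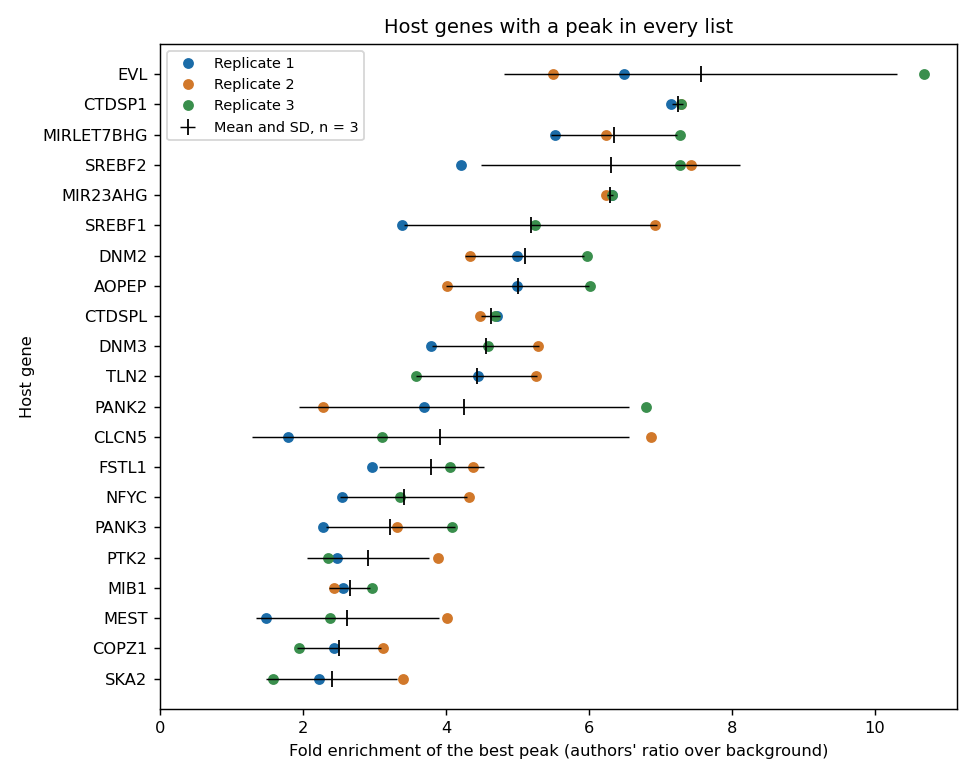
Fold enrichment of the best peak (x axis, the authors' ratio over the background of the peak caller, linear) in the 21 host genes with a peak in every list, sorted by their mean; points are the 3 replicates, ticks and lines the mean and SD. CTDSP1, MIR23AHG and CTDSPL vary least between replicates (SD 0.0806, 0.0431 and 0.131), and EVL, CLCN5 and PANK2 vary most (SD 2.75, 2.64 and 2.31).

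Only MIRLET7BHG and MIR23AHG of the lncRNA hosts were found in every list. Neither was without repeated values, and MIR23AHG was not when each summit was given to 1 gene only. MIRLET7BHG had best folds of 5.53, 6.24 and 7.28 (mean 6.35 ± 0.878), all intronic. One intronic region, chr22:46072607-46072858, was found in every list with folds of 2.87, 6.24 and 4.27 and summits within 34 bp, 18220, 18254 and 18225 bp upstream of MIR3619. A further intronic place, 10355 and 10354 bp downstream of MIR3619, gave the best peak in replicates 1 and 3. MIR23AHG had best folds of 6.32, 6.24 and 6.32 (mean 6.29 ± 0.0431). All 4 of its summits also lay in an exon of ZSWIM4, which the MIR23AHG body overlaps, so its values cannot be told apart from those of ZSWIM4.

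The other lncRNA hosts had few peaks. MIR99AHG, over 718069 bp, had 5 intronic peaks in replicate 2, the best with a fold of 7.40 and 8606 bp from MIR125B2, and none in replicates 1 and 3. MIR100HG had 4 intronic peaks in replicate 3 with folds from 3.25 to 4.44. DLEU2 had 1 peak in replicate 2 (fold 3.17) and 2 in replicate 3 (3.59 and 2.56), all intronic. MIR503HG had 1 peak in replicate 2 (fold 2.87) and 2 in replicate 3 (the better by q at 2.36), all exonic. MIR497HG had 2 peaks in replicate 3, both also in exons of C17orf49.

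No peak was found in any list for MIR17HG, MIR22HG, MIR210HG, MIR34AHG and MIR155HG, nor for the protein-coding hosts COPZ2, EGFL7, TRPM3 and ZRANB2. MIR17HG carries the miR-17-92 cluster of 6 microRNA genes and MIR34AHG the p53-responsive miR-34a. TRPM3, a cation channel gene that holds miR-204, is the longest of the 40 genes at 917845 bp. The depth behind the lists is unknown, so a gene without a peak had no contact that was called, which does not show that none was there. Of the protein-coding hosts outside these groups, ARPP21 had 8 and 4 peaks, R3HDM1 1 and 5, and RCL1 1 and 2, each in replicates 2 and 3, and the condensin gene SMC4 had 3 in replicate 3.

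The distance of each summit to the nearest same-strand microRNA gene was taken as 0 inside it and otherwise as the bases to its nearer end. No summit lay inside any of the 73 same-strand hairpins in any list, where 19 of 1273 hairpins of the other host genes held one. The interval of 1 peak overlapped a hairpin. It was a peak of DNM2 in replicate 3 (fold 4.61) whose summit lay 87 bp downstream of MIR6793, in the coding exon that follows. The MIR6793 hairpin ends at the last base of its intron, next to that exon. Peaks of AOPEP and CTDSPL in replicate 3 had the same fold and the same −log10 q (8.40) as this DNM2 peak. Overlap with an interval was thus found for 1.37% of the same-strand hairpins of the 40 hosts and for 5.34% (68 of 1273) of those of the other host genes.

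Within 1 kb of a microRNA gene lay 26 of the 459 summits with a distance, 2, 11 and 13 in replicates 1, 2 and 3. These were 2.13%, 8.09% and 5.68% of the host peaks, beside 5.95%, 5.01% and 6.05% in the other host genes. The stretches within 1 kb made up 1.90% of the body length of the 39 hosts and 1.46% of that of the other genes. The 39 hosts were lower than the other genes in replicate 1 and replicate 3 and higher in replicate 2, so no common direction was seen. The 26 summits touched 20 microRNA genes in 15 hosts, 17 of them in a single list, 1 in 2 lists and 2 in every list. Counted by microRNA gene, 20 of 73 (27.4%) had a summit within 1 kb in at least 1 list, against 209 of 1273 (16.4%) in the other host genes, while 2 of 73 against 59 of 1273 had one in every list. Among the 20, MIR532, MIR500A, MIR660 and MIR502 lay in 1 CLCN5 intron and were reached in replicate 2 alone. MIR660 and MIR502 were reached by the same summit, and MIR195 and MIR497 also shared one. Without repeated values 8 of the hosted microRNA genes were left, and the other host genes were not counted that way.

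Both places found in every list were exonic. The NFYC region chr1:40758087-40758344, in the coding exon after the 4706 bp intron with MIR30E and MIR30C1, had summits 832, 820 and 826 bp downstream of MIR30C1. Its folds were 2.41, 3.80 and 3.36. The FSTL1 region chr3:120396406-120396900, in the 3′ UTR that also holds MIR198, had summits 984, 985 and 835 bp upstream of MIR198. Its folds of 1.49, 1.75 and 1.70 were low in every list, with −log10 q of 1.37, 4.06 and 3.43. The summits of this region also lay in the body of the pseudogene BTNL12P. A further 3′ UTR summit of FSTL1 lay 430 bp upstream of MIR198 in replicate 3 (fold 1.57). MIR33A had a coding summit of SREBF2 579 bp upstream in replicate 2 (fold 2.73, −log10 q 1.39). In replicate 3 one lay 549 bp upstream (fold 5.06, −log10 q 14.1), and in replicate 1 none lay within 1 kb. The replicate 2 peak was near the weakest of its list, where the largest q was 0.0499.

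The microRNA genes reached in a single list differed between lists. In replicate 2, an intronic CTDSPL summit with a fold of 4.81 lay 465 bp downstream of MIR26A1. An intronic SKA2 summit with a fold of 2.73 (−log10 q 1.39) lay 205 bp downstream of MIR301A. A coding ARPP21 summit with a fold of 3.21 lay 584 bp upstream of MIR128-2. An intronic NFYC summit with a fold of 3.05 lay 653 bp upstream of MIR30E. The CLCN5 cluster, which holds 8 microRNA genes in 1 intron, was reached within 1 kb by 4 summits of replicate 2 with folds from 2.76 to 4.93, at MIR532, MIR500A, MIR660 and MIR502. No summit of replicate 1 or 3 lay within 1 kb of that cluster.

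In replicate 3, a coding CTDSP1 summit with a fold of 5.64 lay 601 bp downstream of MIR26B. An intronic MIR100HG summit with a fold of 4.44 lay 309 bp upstream of MIR125B1, and an intronic AOPEP summit with a fold of 3.19 lay 877 bp upstream of MIR23B. An intronic MEST summit with a fold of 2.37 lay 564 bp upstream of MIR335, and a coding PANK3 summit with a fold of 1.77 lay 507 bp upstream of MIR103A1. Exonic summits of replicate 3 lay 974 bp from MIR503 in MIR503HG and 248 bp from MIR195 (fold 1.64, −log10 q 1.35). The miR-26 pair was thus reached by different lists and features, an intron of CTDSPL in replicate 2 and an exon of CTDSP1 in replicate 3.

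**Figure D3:**
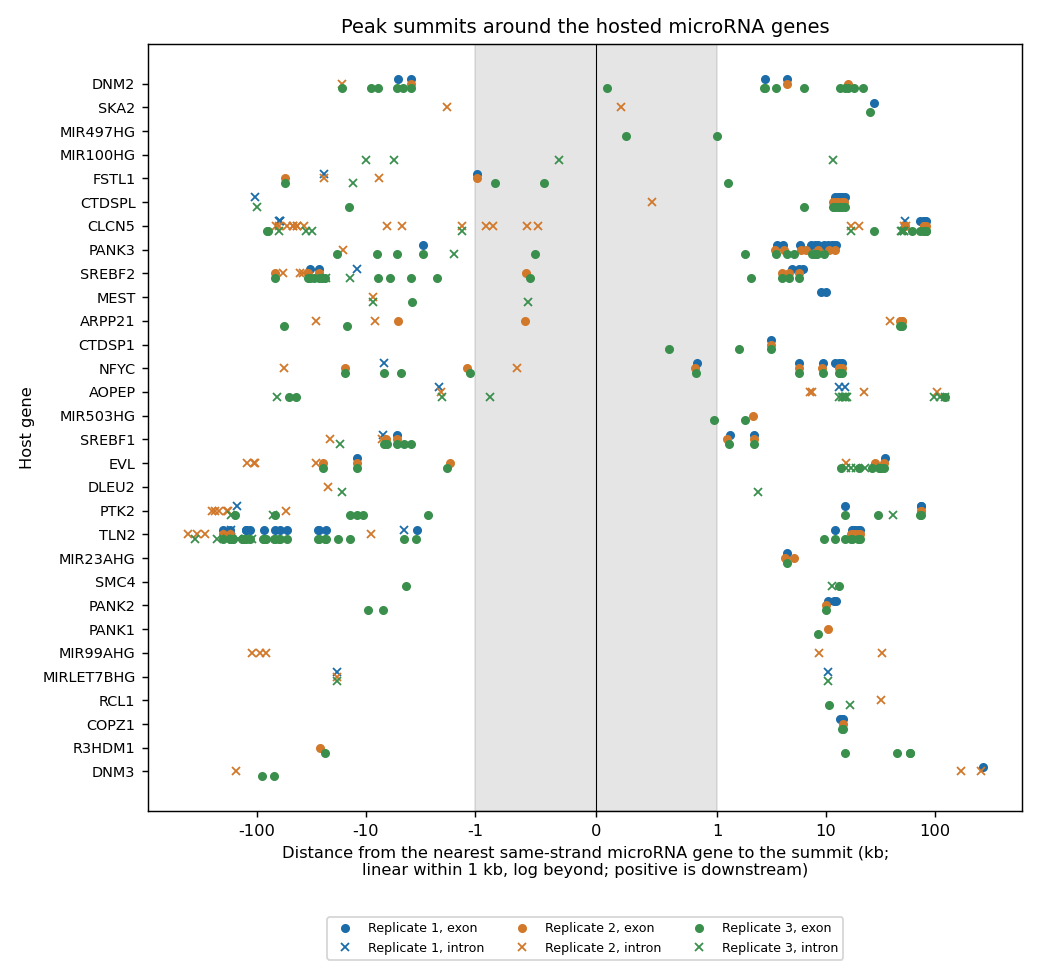
Distance from the nearest same-strand microRNA gene to each summit (x axis in kb, linear within 1 kb and logarithmic beyond, negative for upstream and positive for downstream on the host strand) in the hosts with at least 1 summit; colours are replicates, circles exonic and crosses intronic summits, and the grey band is 1 kb on each side. Of 459 summits, 26 lie in the band, and in NFYC and FSTL1 all 3 colours do.

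The median distance was 13.2, 17.9 and 15.2 kb in replicates 1, 2 and 3 (mean 15.4 ± 2.36), against 23.7, 33.1 and 25.6 kb in the other host genes (mean 27.5 ± 4.98). The median was smaller in the hosts in every list. The 39 hosts held 73 same-strand microRNA genes, 8 of them in CLCN5, and the 1120 other genes held 1273. Whether the number of microRNA genes per host accounts for the shorter distance was not tested. Exonic host summits had a median of 12.9, 12.2 and 14.2 kb, and intronic ones 18.2, 36.7 and 18.2 kb. Upstream and downstream summits numbered 34 and 60 in replicate 1, 71 and 65 in replicate 2, and 116 and 113 in replicate 3.

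**Figure D4:**
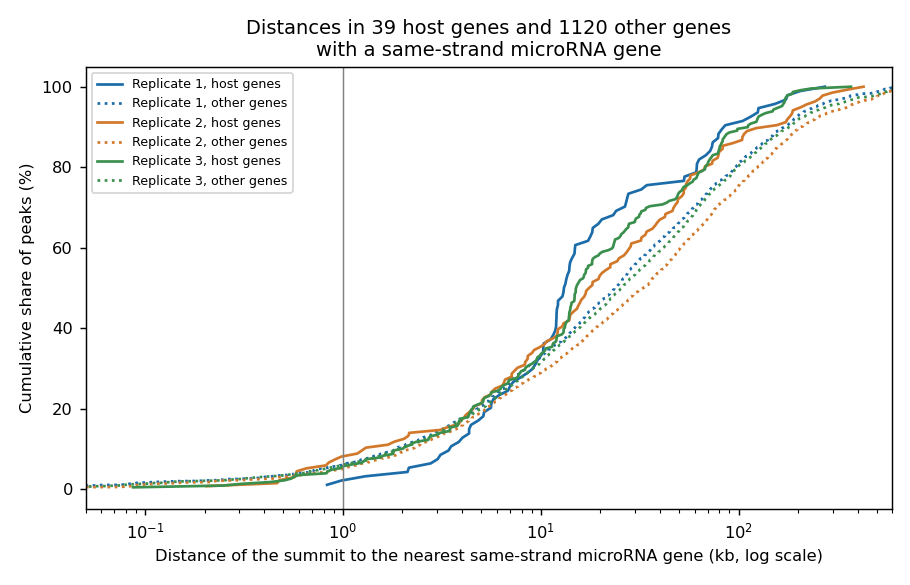
Cumulative share of peaks (y axis, %) by distance of the summit to the nearest same-strand microRNA gene (x axis, kb, log scale) in 39 host genes (solid) and 1120 other genes with a same-strand microRNA gene (dotted), coloured by replicate, with a grey line at 1 kb. The solid curves reach their median at 13.2, 17.9 and 15.2 kb and the dotted ones at 23.7, 33.1 and 25.6 kb, while at 1 kb the curves of replicates 2 and 3 lie between 5.01% and 8.09%.

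The introns that hold the microRNA genes were also compared with the other introns of the same hosts. The 38 introns with a same-strand microRNA gene, in 31 hosts, spanned 623.2 kb. They held 4, 22 and 12 summits, or 0.642, 3.53 and 1.93 per 100 kb, against 0.25, 0.936 and 0.915 per 100 kb in 670 introns without one. Most of this came from CLCN5, whose 117001 bp intron held 3, 17 and 5 summits. Without CLCN5 the density was 0.198, 0.988 and 1.38 per 100 kb in 37 introns with a microRNA gene and 0.231, 0.903 and 0.84 in 650 without one. The order then differed between the lists, lower in replicate 1 and higher in replicates 2 and 3.

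Of the 38 introns, 10 held a summit in at least 1 list and 2 in every list. Of the 670 introns without a microRNA gene, 65 held a summit in at least 1 list and 2 in every list. The 670 introns spanned 4808 kb against 623.2 kb for the 38, and these counts were not adjusted for length. Among the 38, those with a summit in every list were the CLCN5 intron and a 2894 bp intron of AOPEP. The latter holds MIR23B and MIR27B. The AOPEP region chr9:95082612-95083314 had intronic summits 2122, 2039 and 2013 bp upstream of MIR23B. The region itself lay across an exon edge, since the intron begins at position 95083036. Its folds were 2.05, 3.64 and 3.31, with −log10 q of 1.35, 6.09 and 12.2. The replicate 1 peak was near the weakest of its list, where the largest q was 0.0499. Without repeated values AOPEP was no longer found in every list. The CLCN5 summits did not fall in 1 place shared by all lists, since both CLCN5 regions found in every list were in the 3′ UTR.

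Merging host peaks that touched by 1 bp or more gave 333 regions, of which 40 were found in every list, 56 in 2 lists and 237 in 1 list. The 40 lay in 18 hosts. Regions were sorted by the feature at the summit with the highest −log10 q in each list. In all lists this was a 3′ UTR for 24 of the 40 and coding sequence for 8. It was an intron for 2, a 5′ UTR for 1 and a non-coding exon for 1. For 4 regions the feature differed between lists. The regions found in every list were thus mostly exonic. Regions were not counted in other genes. The mean exonic share of summits was 69.7% in the hosts and 70.2% in all other protein-coding and lncRNA genes. The microRNA genes of the hosts were mostly intronic (50 of 73, with 21 in exons and 2 across an exon edge). The count of 40 regions rests on the definition of overlap, with 18 regions at a reciprocal overlap of 50% and 20 with summits within 100 bp.

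Exons held 83.5%, 49.3% and 76.4% of the host summits in replicates 1, 2 and 3 (mean 69.7 ± 18.1%, SD, n = 3), beside 77.8%, 58.3% and 74.4% in all other protein-coding and lncRNA genes. The lists differed from each other more than the hosts differed from other genes. Coding sequence held 29.1%, 18.8% and 48.4% of the host summits. The 3′ UTR held 49.5%, 25.4% and 19.9%, and introns 16.5%, 50.7% and 23.6%. Replicate 1 was thus high in the 3′ UTR, replicate 2 in introns and replicate 3 in coding sequence. The same lists were highest in all other protein-coding and lncRNA genes. There, coding sequence held 33.5%, 25.0% and 44.6%, the 3′ UTR 38.5%, 27.4% and 23.1%, and introns 22.2%, 41.7% and 25.6%. GC content in the 50 bases before and after the summit was 47.2 ± 2.15% in the hosts and 47.2 ± 1.01% in all other genes (means of 3 lists).

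**Figure D5:**
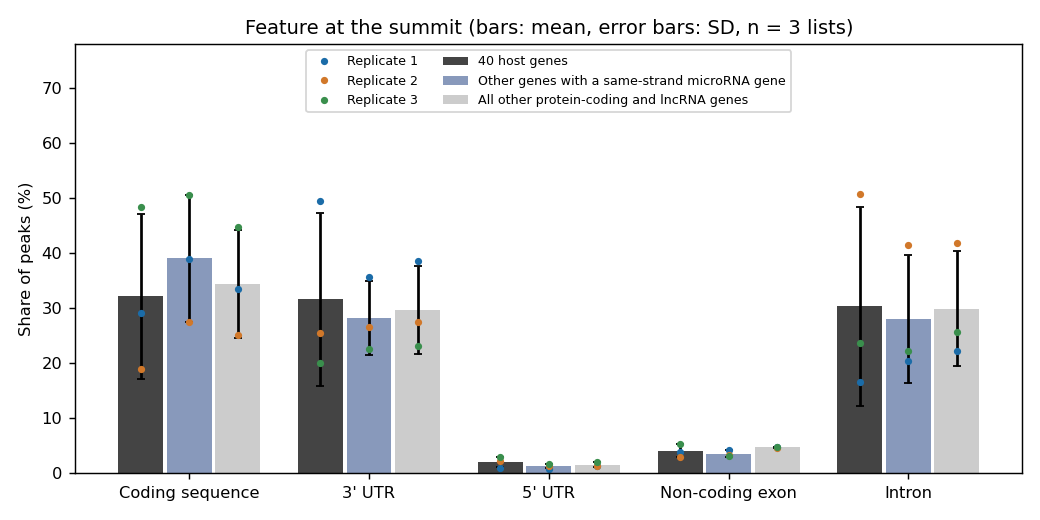
Share of peaks (y axis, %) by the feature at the summit in the 40 host genes, in other genes with a same-strand microRNA gene and in all other protein-coding and lncRNA genes; bars are means of the 3 lists, error bars the SD and points the replicates. In the host genes, introns hold 50.7% of the peaks of replicate 2 and 16.5% of those of replicate 1, and the SD of the host genes covers the means of both other sets in every feature.

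Genes whose products process or use microRNAs were counted as well. Of 24 such genes, 17 had a peak in every list, among them DROSHA and DGCR8 of the Microprocessor. The share over all protein-coding genes was 25.7%, and the median body of the 24 genes was 34.9 kb against 27.4 kb. The best folds of DROSHA were 3.18, 4.10 and 5.27, and those of DGCR8 were 4.51, 5.45 and 4.08. DICER1, which cuts the hairpin precursor in the cytoplasm, had 18, 9 and 24 peaks with best folds of 2.94, 2.48 and 2.38. DDX5 itself had best folds of 1.75, 1.49 and 2.29. TARBP2, a partner of Dicer, and LIN28A and LIN28B, which block let-7 maturation, had no peak in any list. All 8 genes that mark RH30 (MYOD1, MYOG, DES, CDH15, FGFR4, MYCN, PAX3 and FOXO1) had a peak in every list, as had 25.7% of all protein-coding genes.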

How the data were processed

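RIP-seq peak lists of 3 DDX5 immunoprecipitates from RH30 nuclei were used. Files of INPUT samples were not used here. The submitters' processing notes list bcl2fastq 2.20, FastQC 0.11.8, cutadapt 1.11, STAR 2.6.1d, SAMtools 1.10, MACS2 2.2.7.1 and GRCh38. Parameters and the control of the peak calls are not given in the sources used here. Per the deposited lists, each peak carries the authors' fold enrichment (a ratio), −log10 p-value and −log10 q-value, a score (not used) and a summit offset. Depth is unknown. The labels call the samples biological replicates.

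An interval with several summits was taken as 1 peak, at the highest −log10 q, and peaks on main chromosomes were kept. Summits were placed in GENCODE 44 gene bodies where coding sequence took precedence over UTRs, UTRs over non-coding exons, and any exon over introns. Overlapping genes each received the summit. Other host genes are those with a microRNA gene wholly within the body on the same strand. With 1 group there was no test. Members and lists were chosen with earlier results of these data known. All 40 members could be named, with values in every list for those found in every list or within 1 kb of a microRNA gene, and other genes only from the marker and pathway lists or where they overlap a member. Alternatives were stricter limits on q and on fold, lists of equal length, omission of each replicate, exclusive or exon-only assignment, every summit, other overlaps and windows, either strand, and omission of repeated values (a fold and p found together in 10 or more peaks of a list). Python 3.11.15, pandas 2.3.3 and numpy 2.4.6 were used, and the steps were tested on simulated data.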

Additional observations from a re-analysis of the deposited data

How the results depend on the processing

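With q under 1e-05 or with fold enrichment of at least 4, fewer peaks remain by construction. The hosts with a peak in every list were then 16 and 11 instead of 21, the shared regions 18 and 4 instead of 40, and the mean of host peaks per list 83.3 and 34.3. Peaks within 1 kb of a microRNA gene were 12 and 6, microRNA genes within 1 kb 12 and 7, and the median distance 12.1 and 12.2 kb. GC content was 52.6% with the fold limit, and the cause was not tested. The 11 hosts were AOPEP, CTDSP1, CTDSPL, DNM2, EVL, MIR23AHG, MIRLET7BHG, NFYC, SREBF1, SREBF2 and TLN2. Shared regions were 18 at a reciprocal overlap of 50% and 20 with summits within 100 bp. Without repeated values (a fold and p found together in 10 or more peaks of a list), which were 41.7%, 60.1% and 69.5% of the host peaks, there were 14 hosts in every list, 18 shared regions, 63.3 peaks per list, 9 peaks within 1 kb and 8 microRNA genes within 1 kb. AOPEP, COPZ1, DNM2, DNM3, MEST, MIR23AHG and MIRLET7BHG then left the count of every list. Within 5 kb instead of 1 kb lay 92 peaks and 38 microRNA genes. Leaving out 1 replicate gave 21 to 27 hosts in every remaining list, 43 to 70 shared regions, 13 to 24 peaks within 1 kb (15 without replicate 2, 13 without replicate 3) and 11 to 20 microRNA genes within 1 kb (12 without replicate 2, 11 without replicate 3). Giving each summit to 1 gene only left 18 hosts in every list, without MEST, MIR23AHG and PANK2. No paired analysis was possible because no INPUT list was analysed and no result comes from a test.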
